A study of Mus musculus with 10 samples.

Results

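The 10 genes described here form the core of the mammalian circadian clock, the cell's daily timer of transcription: *Arntl* (also called *Bmal1*), *Clock*, *Per1*, *Per2*, *Per3*, *Cry1*, *Cry2*, *Nr1d1*, *Nr1d2* and *Dbp*. They were taken by symbol, and every probe set that named exactly 1 of these symbols was kept, which gave 23 of the 45037 probe sets on the array that are not controls. Of the 23, 20 had a mean signal above the median of all probe sets and were tested, and 3 (1 of *Arntl* and 2 of *Per3*) were too dim for a test. The muscle was gastrocnemius from 10 male mice, 13 months old, with 1 array per mouse. There were 5 D257A mice (2-17M, 2-21M, 2-25M, 2-27M and 2-30M), homozygous for a knock-in allele of *Polg* (PolgD257A/D257A) that removes the proofreading activity of the mitochondrial DNA polymerase gamma in every tissue, and 5 Polg+/+ wild-type (WT) mice (1-12M, 1-13M, 2-3M, 2-32M and 3-18M). Both groups came from a mixed background backcrossed for a few generations to C57Bl/6J. The DNA flanking the knock-in allele was not compared between the genotypes. The animals lived under a light and dark cycle with free access to food. The sources used here give neither the hour of harvest nor whether the mice were littermates, so p-values measure the spread between these animals only.

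In the clock, the proteins CLOCK and BMAL1 bind E-box sequences as a pair and switch on the *Per* and *Cry* genes, whose products return to the nucleus and repress the pair. A connected loop runs through the nuclear receptors REV-ERB alpha and beta (*Nr1d1* and *Nr1d2*), which are also E-box targets and repress *Arntl* through ROR elements (ROREs), the sites at which the ROR receptors activate it. *Dbp*, another direct target of the pair, encodes an activator of D-box promoters. In mouse tissues, muscle included, *Dbp* and *Nr1d1* peak when *Arntl* is low, so the level of each gene in a single sample depends on the hour at which it was taken.

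Promoter windows from 250 bases before to 50 bases after the RefSeq transcript start (GRCm38.p6) were found for 9 of the 10 genes, 13 windows in all. The windows were searched on both strands for the E-box CACGTG, the D-box TTANGTAA, the RORE (A, any 2 bases, T, any base, then GGTCA) and the cyclic AMP response element TGACGTCA, none of which contains another. The E-box was in the windows of *Per1* (first base at -166) and *Cry1* (at -60), the D-box occurred at -205 and -158 of *Per3*, the RORE lay at +28 in 1 window of *Arntl*, and no member window held the cyclic AMP element. Over all 32851 windows of this length, 7.15% held the E-box, 2.32% the D-box, 2.46% the RORE and 1.79% the cyclic AMP element. The windows of *Arntl*, *Per3* and *Dbp* are shown because of values described below. In each genotype, the mouse with the highest *Arntl* had the lowest *Per3* and *Dbp*, by the brightest probe set of each gene. In D257A muscle that mouse lay only a little below the next one for *Per3* and *Dbp*. Capitals mark motif matches, and the *Dbp* window holds none of the 4 motifs.
Arntl, chr7:113207261-113207560, + strand: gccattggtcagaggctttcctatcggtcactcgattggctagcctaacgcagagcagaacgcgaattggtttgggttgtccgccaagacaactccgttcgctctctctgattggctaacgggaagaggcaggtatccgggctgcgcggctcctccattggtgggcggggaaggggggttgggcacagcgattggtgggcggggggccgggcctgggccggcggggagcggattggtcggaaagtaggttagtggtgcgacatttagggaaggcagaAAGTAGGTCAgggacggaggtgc
Per3, chr4:151044616-151044915, - strand: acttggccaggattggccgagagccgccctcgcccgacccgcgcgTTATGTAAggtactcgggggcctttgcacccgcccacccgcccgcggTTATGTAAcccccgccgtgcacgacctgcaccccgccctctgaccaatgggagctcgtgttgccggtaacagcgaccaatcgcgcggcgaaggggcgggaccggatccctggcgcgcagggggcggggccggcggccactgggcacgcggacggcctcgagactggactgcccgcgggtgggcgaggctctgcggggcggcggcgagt
Dbp, chr7:45704997-45705296, + strand: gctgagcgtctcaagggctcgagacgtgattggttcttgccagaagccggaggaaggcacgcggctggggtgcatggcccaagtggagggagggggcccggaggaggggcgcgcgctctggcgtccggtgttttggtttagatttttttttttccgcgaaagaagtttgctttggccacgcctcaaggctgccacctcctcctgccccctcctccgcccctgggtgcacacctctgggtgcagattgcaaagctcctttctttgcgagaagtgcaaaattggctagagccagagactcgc

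Signals are given after scaling each array to a trimmed mean of 500, in the order of the mice above. Skeletal muscle fibre markers gave a summed signal of 530595 to 568814.7 in D257A muscle and 467585.1 to 617408.9 in WT muscle. Of the 10, 1, myoglobin (*Mb*), was lower in D257A muscle (log2 difference -0.35, limma adjusted p = 0.0353), where 3.52% of all genes were lower. The median log2 difference over the 10 was 0.06. The 10 cochlea markers, checked because a protocol in the labels names that tissue, summed to 340.0 to 630.0 in D257A muscle and 426.4 to 593.4 in WT muscle, with the hair cell gene *Pou4f3* at 2.289 to 4.686 in D257A and 1.985 to 5.155 in WT mice. One WT array, mouse 1-13M, stood apart. Its log2 signals deviated from the genotype mean by 0.498 (root mean square over all tested probe sets), against 0.278 to 0.379 in the other 9 mice, and over the 10 clock genes by 0.877, against 0.197 to 0.436. Its deposited trimmed mean was also the highest, at 129, with 93.4 to 116 in the other mice. The log2 ratio of 3′ to 5′ control probes was -0.305 in it, within the range of -0.433 to -0.171 over all mice. Differences between genotypes and relations with *Arntl* below that rest on this mouse are given with and without it. Gene expression in whole muscle cannot tell fewer cells of a type from less RNA per cell.

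Between genotypes, few clock probe sets differed. Past an adjusted p of 0.05 (limma, Benjamini-Hochberg over 22518 probe sets) were 2 of the 20 tested, or 10.0%, beside a background of 7.38% of all tested probe sets. One *Clock* probe set was higher in D257A muscle, beside a background of 3.64% in that direction, and 1 *Nr1d2* probe set was lower, beside 3.74%. These were also the only 2 of the 20 whose D257A and WT values did not overlap, where 7.71% of all tested probe sets did not (3.94% with D257A higher and 3.77% with D257A lower). At an unadjusted p under 0.05 there were 3 of 20, with a background of 23.6%. The median log2 difference was -0.02 over the 20 clock probe sets and -0.03 over all 22518, and 11 of the 20 differences were negative. Without WT mouse 1-13M, 5 of the 20 were called, with a background of 15.2%: *Clock* 1418659_at and *Cry2* were higher in D257A muscle (background 7.32%), and *Nr1d2* 1416959_at and both *Dbp* probe sets were lower (background 7.90%).

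**Figure D1:**
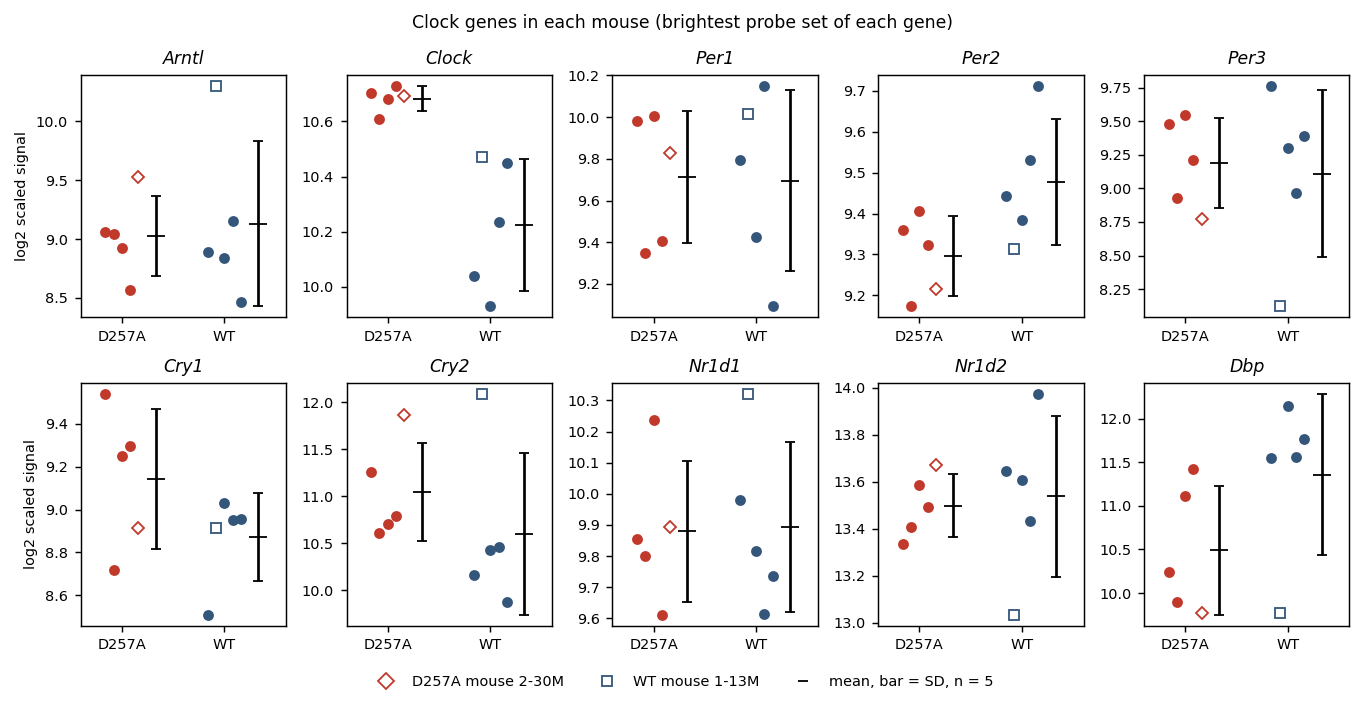
Log2 scaled signal of the brightest probe set of each of the 10 clock genes in each mouse (points), beside which bars mark the genotype's mean ± SD (n = 5). WT mouse 1-13M (open square) lies at the top of the WT values for Arntl, Clock, Cry2 and Nr1d1 and at the bottom for Per2, Per3, Nr1d2 and Dbp, and D257A mouse 2-30M (open diamond) has the highest D257A signals of Arntl and Cry2.

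Of the activators, *Clock*, the DNA-binding partner of BMAL1 and a histone acetyltransferase, was higher in D257A muscle by 1 probe set of 4. Probe set 1418659_at gave 1669.0, 1559.7, 1640.0, 1698.5 and 1653.2 in the D257A mice and 1053.0, 1419.2, 976.3, 1204.0 and 1397.0 in the WT mice. Every D257A mouse was above every WT mouse, and the D257A values were close together while the WT values were spread. The mean was 1644.1 ± 51.97 in D257A and 1209.9 ± 198.8 in WT muscle (SD, n = 5 each), a log2 difference of 0.46 (SE 0.13, 95% CI 0.19 to 0.73; limma adjusted p = 0.0412). The other 3 *Clock* probe sets did not pass the test and gave log2 differences of 0.07 (1418660_at, adjusted p = 0.861), -0.06 (1435775_at, adjusted p = 0.832) and 0.33 (1439314_at, adjusted p = 0.506), so the probe sets of this gene disagreed. The call of 1418659_at lay close to the threshold. It was lost when any 1 mouse other than WT 1-13M or WT 3-18M was left out (adjusted p = 0.0631 to 0.11), and with the deposited signals unscaled (adjusted p = 0.203), while without WT 1-13M the log2 difference was 0.52 (adjusted p = 0.00872). With the first digit of the mouse number, described with *Dbp* below, as a block, the log2 difference was 0.60 and the call was lost (limma adjusted p = 0.066), and among the mice numbered 2 alone it was 0.60 and passed (limma adjusted p = 0.0172).

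*Arntl*, which encodes BMAL1, the activator without which the clock stops in mice, did not differ between genotypes beyond the spread between mice. Probe set 1425099_a_at gave 533.7, 528.6, 487.1, 380.3 and 735.6 in D257A muscle and 475.7, 1263.0, 456.6, 570.8 and 354.5 in WT muscle. WT mouse 1-13M was far above all the others, and D257A mouse 2-30M was the next. The log2 difference was -0.11 (SE 0.28, 95% CI -0.72 to 0.50; limma adjusted p = 0.86), and 0.19 without WT 1-13M (adjusted p = 0.54). The second probe set, 1457740_at, was dim and untested, at 26.23 to 82.88 in D257A and 23.54 to 79.76 in WT muscle.

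None of the 8 tested *Per* probe sets, which measure the period proteins' mRNAs of the repressor complex, passed the limma test, and none had an unadjusted p under 0.05 or passed the methods' t-test. *Per1*, the member that responds fastest to light and hormones in mice, had 1010.3, 651.5, 1028.4, 677.8 and 908.3 in D257A muscle, against 887.4, 1033.4, 688.5, 1137.2 and 546.8 in WT muscle. The groups covered nearly the same range, with a log2 difference of 0.02 (95% CI -0.43 to 0.46; limma adjusted p = 0.972). *Per2*, needed for sustained rhythms in mice, had 657.5, 577.8, 678.0, 640.9 and 594.3 in D257A muscle, against 695.9, 636.5, 668.5, 739.2 and 839.1 in WT muscle (1417602_at). Only the top 3 D257A mice reached the WT range, and the log2 difference of -0.18 (95% CI -0.44 to 0.08; limma adjusted p = 0.392) did not pass the test. The other *Per2* probe sets gave 0.02 (1457350_at, adjusted p = 0.972) and -0.07 (1417603_at, adjusted p = 0.895).

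*Per3*, whose promoter window carries the pair of D-boxes shown above, was one of the members that varied most within a genotype when WT mouse 1-13M was included. Its brightest probe set, 1441445_at, gave 714.2, 486.9, 748.6, 592.7 and 438.2 in D257A muscle and 870.7, 279.1, 630.2, 500.4 and 671.7 in WT muscle. The lowest D257A value belonged to mouse 2-30M and the lowest WT value to mouse 1-13M, the same mice that had the highest *Arntl*. The log2 difference was 0.08 (95% CI -0.48 to 0.64; limma adjusted p = 0.889), and -0.17 without WT 1-13M (adjusted p = 0.593). Of the other tested *Per3* probe sets, 1442243_at gave a log2 difference of 0.30 (adjusted p = 0.492), 1421087_at gave -0.03 (adjusted p = 0.949) and 1458176_at gave -0.38 (adjusted p = 0.274). The 2 untested probe sets lay between 3.927 and 71.47 in D257A and between 5.486 and 87.22 in WT muscle.

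The cryptochromes are the stronger repressors of the CLOCK and BMAL1 pair. *Cry1*, which carries an E-box in its window, gave 743.4, 421.2, 609.8, 629.7 and 481.7 in D257A muscle and 364.5, 482.5, 522.7, 495.7 and 495.9 in WT muscle. The D257A mice with the highest values (2-17M, 2-25M and 2-27M) were above all WT mice, but the groups overlapped, and the log2 difference of 0.27 (95% CI -0.09 to 0.63; limma adjusted p = 0.357) did not pass the test. *Cry2* gave 2442.7, 1558.8, 1668.8, 1774.1 and 3734.1 in D257A muscle and 1141.3, 4348.4, 1380.2, 1410.3 and 936.8 in WT muscle. Every D257A mouse was above the WT mice other than 1-13M, which was the highest of all 10. With all mice the log2 difference was 0.44 (SE 0.35, 95% CI -0.32 to 1.20; limma adjusted p = 0.484). Without WT 1-13M it was 0.81 (SE 0.22, 95% CI 0.34 to 1.29; limma adjusted p = 0.0235), so this call depended on that 1 mouse.

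Of the REV-ERB receptors, *Nr1d1* (REV-ERB alpha) had 925.0, 890.7, 1207.2, 782.3 and 951.4 in D257A muscle and 1010.6, 1278.1, 900.5, 783.4 and 853.0 in WT muscle. The ranges were almost the same, and the log2 difference was -0.01 (95% CI -0.35 to 0.32; limma adjusted p = 0.969). *Nr1d2* (REV-ERB beta) was measured by a bright and a dimmer probe set, which disagreed. Both were far above the filter, the median log2 signal of 6.26, with means of 8.539 in D257A and 9.302 in WT muscle for the dimmer one. This dimmer one, 1416959_at, gave 350.9, 484.4, 345.9, 454.2 and 266.9 in D257A muscle and 653.3, 546.4, 573.3, 724.8 and 675.7 in WT muscle. Every D257A mouse was below every WT mouse. The mean was 380.5 ± 88.33 in D257A and 634.7 ± 73.65 in WT muscle (SD, n = 5 each), a log2 difference of -0.76 (SE 0.17, 95% CI -1.13 to -0.40; limma adjusted p = 0.0156). Among the mice whose number begins with 2, described with *Dbp* below, the difference was as large but the call was lost (log2 difference -0.79, limma adjusted p = 0.0604). With that digit as a block the difference comes from the same mice, and the call was lost too (-0.79, limma adjusted p = 0.093). The bright one, 1416958_at, gave 10331.9, 10854.1, 12307.7, 11531.1 and 13038.4 in D257A muscle and 12810.3, 8394.0, 12480.2, 11065.0 and 16075.9 in WT muscle. There the D257A values lay inside the WT range, with a log2 difference of -0.04 (95% CI -0.35 to 0.27; limma adjusted p = 0.894). The interval of the bright probe set does not reach the difference of the dimmer one. The signs of the differences of *Arntl*, *Nr1d1* and the bright *Nr1d2* probe set turned when each array was centred on its median, and that of *Per1* turned with unscaled signals.

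**Figure D2:**
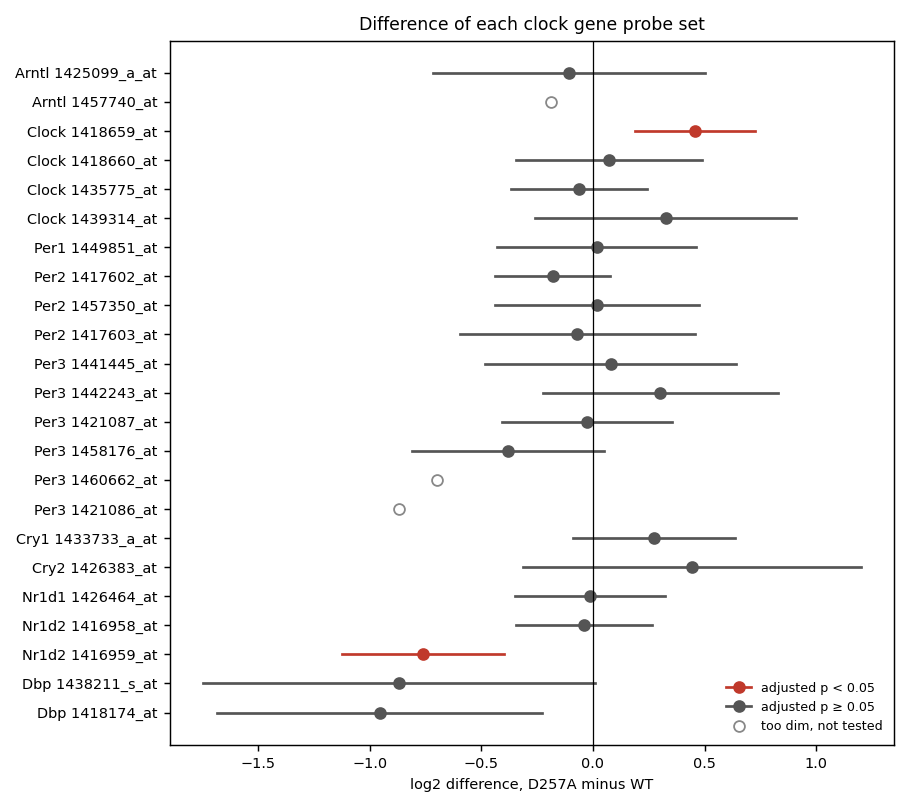
Log2 difference, D257A minus WT, of the 23 clock gene probe sets, with 95% confidence intervals for the 20 tested (n = 5 mice each). Only Clock 1418659_at (0.46) and Nr1d2 1416959_at (-0.76) have an adjusted p under 0.05 (red), and the Dbp probe sets have the most negative differences of the 20 tested, with wide intervals.

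*Dbp*, the output activator that depends most directly on the CLOCK and BMAL1 pair, gave lower values in D257A muscle than in 4 of the 5 WT mice. Probe set 1438211_s_at, the brighter, gave 1215.2, 956.4, 2209.5, 2755.2 and 874.2 in D257A muscle and 3006.5, 873.4, 4539.5, 3028.6 and 3476.0 in WT muscle. All D257A mice were below the WT mice other than 1-13M, whose signal was the lowest of all 10. On probe set 1418174_at, too, all D257A mice were below the WT mice other than 1-13M, with 1039.7, 811.5, 1392.3, 1589.4 and 653.3 in D257A muscle and 2538.5, 780.0, 3311.7, 2044.1 and 2494.4 in WT muscle. With all mice, neither passed the test: the log2 difference was -0.87 (SE 0.41, 95% CI -1.75 to 0.01; limma adjusted p = 0.217) for 1438211_s_at and -0.96 (SE 0.34, 95% CI -1.68 to -0.23; limma adjusted p = 0.105) for 1418174_at. Without WT 1-13M both did, at -1.27 (95% CI -1.88 to -0.65; limma adjusted p = 0.00901) and -1.30 (95% CI -1.78 to -0.81; limma adjusted p = 0.00181). The mouse numbers of all D257A mice begin with 2 and those of WT mice with 1, 2 or 3, a digit that the sources used here do not explain. Among the 7 mice whose number begins with 2 (5 D257A and 2 WT), the log2 difference was -1.32 for 1418174_at (limma adjusted p = 0.0283) and -1.37 for 1438211_s_at (limma adjusted p = 0.0601). With that digit as a block over all 10 mice neither passed (limma adjusted p = 0.12 for 1418174_at and 0.161 for 1438211_s_at). As all D257A mice begin with 2, the block takes its difference from the same 7 mice and is no second check of it.

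The members differed widely in how much they varied among mice of 1 genotype. The pooled within-genotype SD of log2 signal was 0.83 for *Dbp*, 0.71 for *Cry2*, 0.55 for *Arntl* and 0.50 for *Per3*, and 97.6%, 95.9%, 90.3% and 86.6% of all tested probe sets had a smaller one. *Per1* (0.38), *Cry1* (0.27), *Nr1d2* (0.26) and *Nr1d1* (0.25) came next, with 71.0%, 45.4%, 41.4% and 38.6% of probe sets below them. *Clock* had an SD of 0.17 (15.0%) and *Per2* one of 0.13 (5.45%), the smallest of the members. All these SDs include WT mouse 1-13M and were not computed without it. WT mouse 1-13M had the highest WT signal of *Arntl*, *Clock*, *Cry2* and *Nr1d1* and the lowest of *Per2*, *Per3*, *Nr1d2* and *Dbp*. D257A mouse 2-30M had the highest D257A signal of *Arntl*, *Cry2* and *Nr1d2* and the lowest of *Per3* and *Dbp*. The part that the hour of harvest had in these values was not tested.

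**Figure D3:**
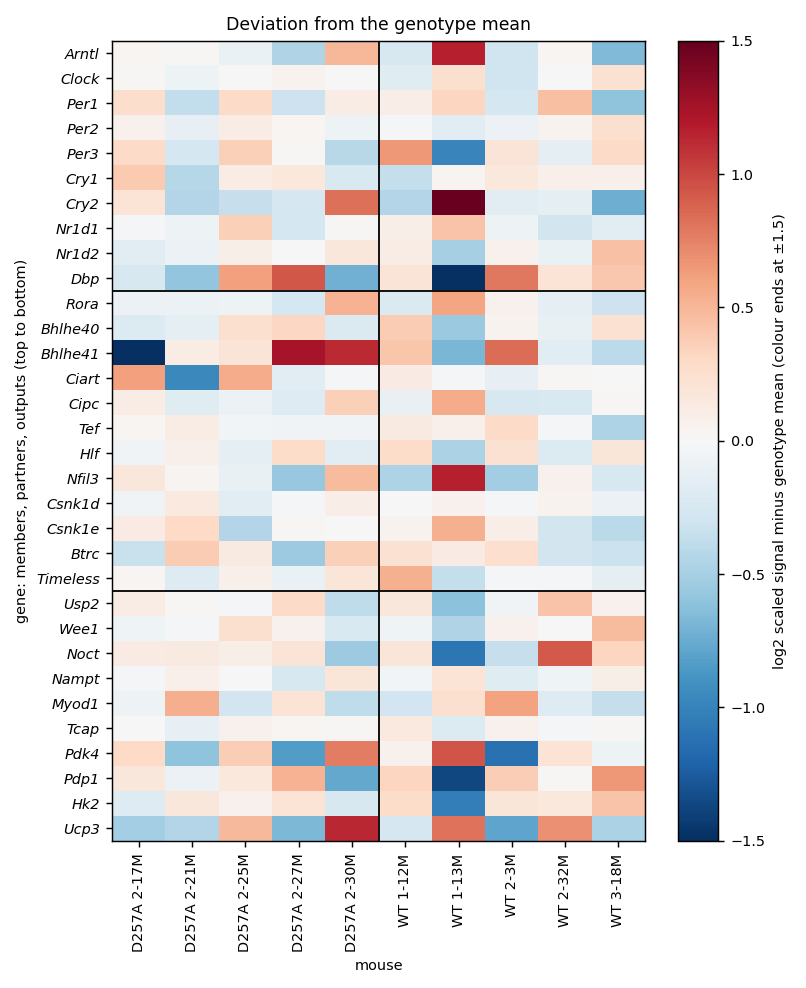
Deviation of log2 scaled signal from the mean of the mouse's own genotype (colour, ending at ±1.5) for the 10 clock genes and the tested partner and output genes (rows), in 5 D257A and 5 WT mice (columns). WT mouse 1-13M has strong colours, high for Arntl, Cry2 and Nfil3 and low for Dbp, Per3, Pdp1 and Hk2, and D257A mouse 2-30M is high for Arntl and Cry2 and low for Dbp, Per3 and Pdp1.

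Across the 10 mice, deviations from the genotype mean of *Arntl* were compared with those of the other 9 genes, a family of 9 relations, each tested by permuting mice within genotype (two-sided). *Arntl* and *Dbp* ran opposite, with r = -0.89 (permutation p = 0.00313, adjusted p = 0.0175) and rho = -0.83 (permutation p = 0.00535, adjusted p = 0.0481). *Arntl* and *Cry2* ran together, with r = 0.93 (permutation p = 0.00389, adjusted p = 0.0175) and rho = 0.81 (permutation p = 0.0124, adjusted p = 0.0559). *Arntl* and *Per3* had r = -0.82 (permutation p = 0.0233, adjusted p = 0.07) and rho = -0.54 (permutation p = 0.137, adjusted p = 0.247), which did not pass. Of the other 6, *Nr1d2* had r = -0.74 (permutation p = 0.0664, adjusted p = 0.136), *Per2* r = -0.66, *Nr1d1* r = 0.62, *Per1* r = 0.60, *Clock* r = 0.33 and *Cry1* r = -0.13, and their adjusted permutation p ran from 0.136 to 0.697. The sign for *Nr1d1* was opposite to that for *Dbp*, although both genes are described above as peaking when *Arntl* is low. Mice 1-13M and 2-30M were the 2 farthest from the median of *Arntl*. Without them, r was -0.59 for *Dbp* (permutation p = 0.104, adjusted p = 0.312), 0.56 for *Cry2* (permutation p = 0.201, adjusted p = 0.453) and -0.22 for *Per3* (permutation p = 0.622, adjusted p = 0.738), so the relations of *Dbp* and *Cry2* that had passed rest on those 2 mice. Without the same mice r was -0.82 for *Nr1d2* (permutation p = 0.0434, adjusted p = 0.289) and 0.75 for *Per1* (permutation p = 0.0642, adjusted p = 0.289), both farther from 0 than with all mice, and none of the 9 relations passed. Without WT 1-13M alone, r was -0.72 for *Dbp* and 0.78 for *Cry2* (adjusted permutation p = 0.13 for each).

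**Figure D4:**
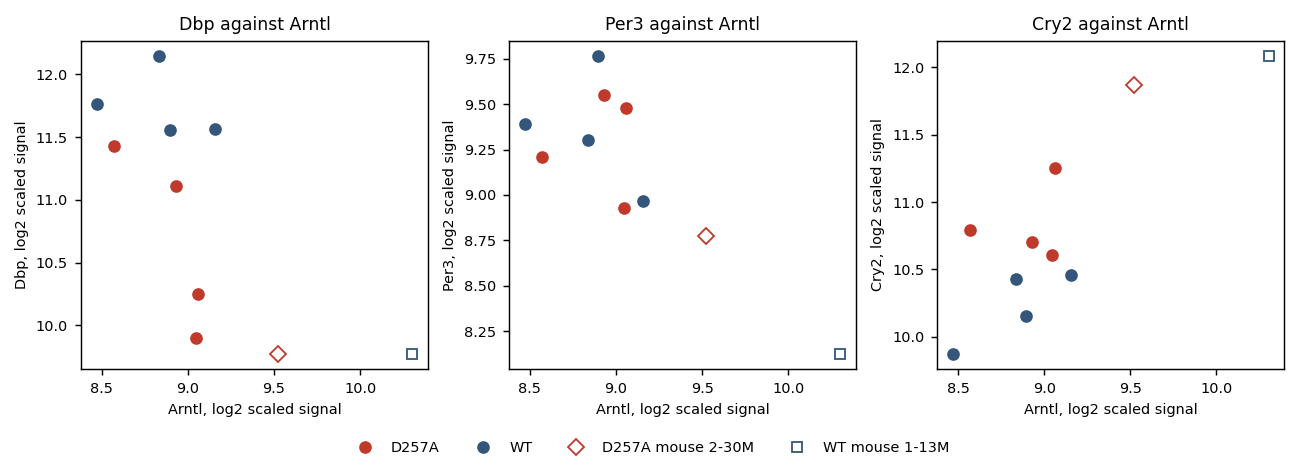
Log2 scaled signal of Dbp, Per3 and Cry2 (vertical axes) against that of Arntl (horizontal axis) in 5 D257A mice (red) and 5 WT mice (blue). D257A mouse 2-30M (open diamond) and WT mouse 1-13M (open square) hold the right-hand end of each panel, and for Dbp the other D257A mice lie below the other WT mice.

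Of the 11214 other genes with a tested probe set, those whose deviations were most like *Arntl* were *Rbm5* (r = 0.98), a splicing factor, *Zfas1* (0.98), *Slc15a4* (0.98), a histidine and peptide transporter, *Lemd2* (0.98), a protein of the inner nuclear membrane, and *Taf8* (0.98), a subunit of the general factor TFIID. The most opposite were *Pfn2* (r = -0.99), an actin-binding profilin, *Pdp1* (-0.98), the phosphatase that activates pyruvate dehydrogenase, *Dipk1a* (-0.98), *Polr3k* (-0.98), a subunit of RNA polymerase III, and *Esr1* (-0.98), the estrogen receptor. Without mice 1-13M and 2-30M, r was 0.85 to 0.91 for the first group and -0.96 to -0.90 for the second. The remaining mice also took part in picking these genes, so those values are no separate check. These values describe 10 mice that share 2 extreme animals, and *Dbp* stood at place 369 from the negative end of the same ranking.

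Other genes of the clock loops did not pass the test with all mice. Of 18 such partners and modifiers, 16 had a probe set, 12 were bright enough to be tested and none was called by limma (5 had an unadjusted p under 0.05, and 1, *Csnk1d*, passed the methods' t-test), while 7.23% of all 11215 genes were called by their brightest probe set, 3.71% as higher and 3.52% as lower in D257A muscle. Of all 11215 genes, 2557 had a limma unadjusted p under 0.05 and 497 passed the methods' t-test after adjustment. The median log2 difference was 0.15 over the 12 and -0.01 over all genes. *Nfil3*, the repressor that competes with DBP for D-boxes, had 1604.1, 1461.1, 1314.5, 962.6 and 1983.9 in D257A muscle, against 643.7, 2000.8, 617.0, 930.9 and 750.7 in WT muscle. WT 1-13M was again the exception, and the D257A mice were above the other 4 WT mice. The log2 difference was 0.68 (limma adjusted p = 0.164) and 0.97 without WT 1-13M (limma adjusted p = 0.00327). *Hlf*, a relative of *Dbp* that also activates D-boxes, gave a log2 difference of -0.52 (limma adjusted p = 0.0745) and -0.64 without WT 1-13M (limma adjusted p = 0.0099), while the third relative, *Tef*, gave 0.03 (limma adjusted p = 0.901). *Rora*, which activates *Arntl* through the RORE, gave 0.38 (limma adjusted p = 0.203) and 0.53 without WT 1-13M (limma adjusted p = 0.0175), and *Cipc*, an inhibitor of the CLOCK and BMAL1 pair, 0.28 (limma adjusted p = 0.315) and 0.42 (limma adjusted p = 0.032). *Csnk1d*, a kinase that marks PER proteins for decay, had 1590.9 to 1980.2 in D257A muscle and 2101.3 to 2335.8 in WT muscle. Its groups did not overlap, and its log2 difference of -0.32 missed the limma threshold (adjusted p = 0.0754) but passed the methods' t-test after adjustment. Without WT 1-13M, 3 of the 12 partners were higher in D257A muscle (*Nfil3*, *Rora* and *Cipc*) and 1 was lower (*Hlf*), with a background of 16.1% of all genes called in either direction, 7.76% as higher and 8.33% as lower. *Btrc* had the smallest p of the 12 with all mice, at a log2 difference of -0.64 (limma adjusted p = 0.0729). *Nfil3*, *Hlf*, *Tef*, *Csnk1d* and *Btrc* were named after their values were seen.

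Of 10 clock-controlled output genes, none was called by limma when all mice were used (2 had an unadjusted p under 0.05, and 0 passed the methods' t-test), and their median log2 difference was -0.20. *Pdp1* had 1844.5, 1547.2, 1833.3, 2346.8 and 962.3 in D257A muscle, against 3749.4, 1167.8, 3872.9, 3044.0 and 4705.4 in WT muscle. As for *Dbp*, every D257A mouse was below the WT mice other than 1-13M. The log2 difference was -0.87 (limma adjusted p = 0.121), and -1.21 without that mouse (limma adjusted p = 0.00152). *Hk2*, the muscle hexokinase, had 6636.5 to 9077.9 in D257A muscle, against 13176.2 to 15879.9 in 4 WT mice and 5755.4 in WT 1-13M. Its log2 difference was -0.59 (limma adjusted p = 0.126), and -0.85 without that mouse (limma adjusted p = 0.00018). Without WT 1-13M, 3 of the 10 outputs were lower (*Hk2*, *Pdp1* and *Usp2*) and none was higher, where 8.33% of all genes were lower and 7.76% higher. *Pdk4*, the kinase that opposes the phosphatase PDP1 and that fasting induces in muscle, ranged from 16238.6 to 49295.6 in D257A muscle and from 10891.8 to 45510.1 in WT muscle, with mouse 2-30M the highest D257A mouse and mouse 1-13M the highest WT mouse. *Pdk4* was named after its values were seen.

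Glucocorticoids reset peripheral clocks, and of 9 glucocorticoid-responsive genes 1 was higher in D257A muscle and none was lower with all mice, *Pik3r1*, the regulatory subunit of phosphoinositide 3-kinase (log2 difference 1.35, limma adjusted p = 0.00911), where 3.71% of all genes were higher. The median log2 difference was 0.48 over the 9 and -0.01 over all genes. A limma unadjusted p under 0.05 was found for 5 of the 9 and for 2557 of all 11215 genes. Without WT 1-13M, 4 of the 9 were higher (*Pik3r1*, *Cdkn1a*, *Fkbp5* and *Foxo3*), where 7.76% of all genes were, and WT 1-13M had the highest WT signal of each of these 4. Of 8 tested immediate early genes, 1 was lower, *Dusp1*, the phosphatase that switches off MAP kinases (log2 difference -0.60, limma adjusted p = 0.0327), where 3.52% of all genes were lower.

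Some markers of other cells also differed between the genotypes, where 3.71% of all genes were higher and 3.52% lower in D257A muscle. Of 7 macrophage markers, *Lyz2* (log2 difference 0.59, limma adjusted p = 0.042) and *Mrc1* (0.78, limma adjusted p = 0.00897) were higher in D257A muscle, and the summed signal of the list was 6705.7 to 9646.3 in D257A and 5892.6 to 7529.9 in WT muscle. Of 5 fibroblast markers, *Col1a1* (log2 difference -2.87, limma adjusted p = 0.0282) and *Col3a1* (-1.80, limma adjusted p = 0.0245) were lower, with a summed signal of 20244.2 to 24192.4 in D257A and 20041.0 to 30578.4 in WT muscle. In WT 1-13M both collagens were within the D257A range. Of 4 adipocyte, 2 Schwann cell and 1 red cell markers tested, limma called 0 with all mice (2 of these had an unadjusted p under 0.05, and 0 passed the methods' t-test). None of the 5 endothelial markers was called by limma (1 had an unadjusted p under 0.05, and 1 passed the methods' t-test), and the list summed to 3041.7 to 4026.7 in D257A and 3039.6 to 3953.8 in WT muscle. Without WT 1-13M, the limma calls also took in the fibroblast gene *Lum* (log2 difference -0.76, adjusted p = 0.00534), the adipocyte hormone *Lep* (-1.59, adjusted p = 0.0174), the red cell enzyme *Alas2* (1.15, adjusted p = 0.0264) and the endothelial gene *Emcn* (0.47, adjusted p = 0.0212). Without that mouse 7.76% of all genes were higher and 8.33% lower. The median log2 difference was then 0.01 over the 5 endothelial markers and -0.33 over the 4 adipocyte markers. With all mice, *Adipoq* (0.30) and *Pparg* (1.03) had positive differences, and *Lep* (-1.18) and *Cidec* (-0.27) negative ones. The part of these cells in the clock gene values was not tested.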

How the data were processed

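RNA from gastrocnemius of 5 D257A and 5 WT mice was hybridised to Affymetrix Mouse Genome 430 2.0 arrays, 1 per mouse. The authors deposited linear signal intensities, made with GCOS 1.3 per the submitters' processing notes. Although the methods state scaling to 500, the trimmed means of the deposited intensities were 93.4 to 106 in D257A and 94.5 to 129 in WT arrays. Each array was therefore scaled to a mean of 500 after trimming 2% at each end, and log2 was taken. An array has no read depth, so precision is set by how many mice were used. Of 45101 probe sets, 64 controls were left out, and the 22518 whose mean log2 signal was above the median were tested.

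Genotypes were compared with limma 3.58.1 in R 4.3.3 (lmFit, then eBayes with a mean-variance trend) and Benjamini-Hochberg adjustment over all tested probe sets. Probe sets were named from GEO's platform annotation: 34958 had 1 symbol, 932 several and 9160 none, and those with several named no gene. Probe sets of 1 gene were kept apart; for lists and correlations the brightest stood for the gene. Named were all 10 members and, of the other lists, the called genes (up to 6 a list, by smallest adjusted p), with exceptions marked in the text. The members and lists were chosen with earlier results of these data known. For the likeness to *Arntl*, the 5 highest and 5 lowest r were named. Relations across mice were tested with 14400 within-genotype permutations. The fitting steps were tested on simulated data. Promoter windows came from RefSeq (GRCm38.p6). Alternatives were other scalings, filters, variance models, array weights, an offset of 32, the methods' t-test, mice numbered 2 alone, the leading digit as a block and each mouse left out. Counts of called genes without WT 1-13M, and the other *Dbp* probe set in the correlation, were added after the data were seen.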

Additional observations from a re-analysis of the deposited data

Results flagged for a closer look

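Outlying mice were sought on log2 signal in 46 groups of 5 mice (each of the 23 clock probe sets in each genotype). The log2 gap between the most extreme mouse and its nearest neighbour was compared with the whole log2 range of the group. It passed Dixon's critical value of 0.71 in 4 of the 46 groups, where chance flags about 1 in 20 independent groups. These groups are not independent, as they share the same mice and genes. The share of flags over all probe sets was not computed, and WT mouse 1-13M also deviated most over all tested probe sets. Of the 4, 3 concerned WT mouse 1-13M. Its *Cry2* signal (4348.4) was the highest of the WT mice by a gap of 0.734 of the log2 range. Its signals of *Dbp* 1438211_s_at (873.4) and *Per3* 1442243_at (184.2) were the lowest by gaps of 0.750 and 0.796. The fourth was *Cry1* in WT mouse 1-12M, whose signal of 364.5 was the lowest of the WT mice by a gap of 0.778. No flag fell on D257A mouse 2-30M.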

How the results depend on the processing

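The 2 called clock probe sets became 1 with unscaled signals, with no filter on dim probe sets, with eBayes without a trend and with the methods' t-test, 4 with array weights, 0 when the mouse number's first digit was a block, and 1 to 5 when 1 mouse was left out, the 5 without WT 1-13M. Over all probe sets the 1662 calls became 3968 with array weights, 1033 with the t-test, 562 with that block and 890 to 3428 with 1 mouse left out, the highest again without WT 1-13M. The share of calls higher in D257A was 49.3%, against 29.4% unscaled (1212 calls) and 79.3% with arrays centred on their medians (2017 calls), which shifted all differences by 0.134 (log2). *Clock* 1418659_at lost its call with no filter (adjusted p = 0.0563), no trend (0.0658), the t-test (0.0578) and the block (0.066), all limma except the t-test. *Nr1d2* 1416959_at lost it among mice numbered 2 alone (limma adjusted p = 0.0604) and with the block (0.093). With array weights, both *Dbp* probe sets passed (limma adjusted p = 0.0332 and 0.00736). The cause was not tested.

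Differences near 0 changed sign. *Arntl* gave 0.028 centred on the median, 0.030 among mice numbered 2 and with the block, and -0.272 to 0.187 with 1 mouse left out. *Per1* gave -0.057 unscaled, -0.003 with array weights, -0.076 among mice numbered 2 and with the block, and -0.133 to 0.131 with 1 mouse left out. *Per3* 1441445_at gave -0.030 with array weights and -0.168 to 0.243 with 1 mouse left out. *Nr1d1* gave 0.001 with quantile normalization, 0.120 centred, 0.096 with array weights, 0.165 among mice numbered 2 and with the block, and -0.104 to 0.093 with 1 mouse left out. *Nr1d2* 1416958_at gave 0.093 centred and -0.166 to 0.068 with 1 mouse left out. The 2 relations of *Arntl* that passed became 0 without the 2 farthest mice and 0 to 3 with 1 mouse left out; the r of *Arntl* with *Clock* became -0.439 without those 2 mice and ran from -0.313 to 0.762 with 1 left out. With 5 mice a group, only differences that are large beside the spread between mice can be called, and the dim probe sets have the least signal above background.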
